A study of Mus musculus with 6 samples.

Results

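Aminoacyl-tRNA synthetases, the enzymes of serine, one-carbon, proline and asparagine synthesis, amino acid transporters and genes of the ATF4 program were followed in the fibro-adipogenic progenitors (FAPs) of mouse skeletal muscle, mesenchymal cells that lie between the fibres. The set was a list of 41 gene symbols chosen by function, out of 54100 genes in the deposited count table. Of these symbols, 40 were found under their own name, each in 1 row. The methionyl-tRNA synthetase gene Mars is listed there as Mars1 and was matched by its Ensembl identifier. The list was drawn up with earlier results of the same comparison known, so counts over it describe these libraries and are no independent evidence of a direction. The cells were Pdgfra+ cells sorted from the plantaris muscle of C57BL/6 mice, and 1000 of them went into each tube. Sham muscle gave 3 libraries, and overloaded muscle gave another 3. The sources used here do not give the age of the mice, how and for how long the load was applied, or whether each library came from its own animal. The p-values therefore measure the spread between libraries, part of which may be technical.

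Aminoacyl-tRNA synthetases join each amino acid to its transfer RNA, the step that supplies the ribosome. Cells also make serine, glycine, proline and asparagine themselves, and use serine as a source of one-carbon units for nucleotide synthesis. ATF4 is a transcription factor that is made when the initiation factor eIF2 is phosphorylated, for instance when amino acids run short. It is controlled largely at translation, and it binds a C/EBP-ATF response element in genes for synthetases, amino acid enzymes and transporters. In fibroblasts these genes also serve the making of collagen, which is rich in glycine and proline.

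The sequences below are shown because they carry the core of that element, TGATGNAA, in members of the list. The 250 bases upstream of each RefSeq start site (RefSeq promoters, build GRCm38.p6) were searched on both strands for TGATGNAA and for the E-box CACGTG, and the matches of the 2 motifs did not overlap. Windows were found for 32 of the 41 members. TGATGNAA was present for 6 of them (18.8%), against 3.91% of the 27025 genes with a window. CACGTG was present for 4 members (12.5%, among them Aldh18a1, Farsb and Iars), against 6.86% of all genes. Capitals mark the match, and each sequence runs 5′ to 3′ on the gene's own strand. For Gars, Tars, Pycr1 and Chac1 the upstream stretch outside annotated exons is given, and for Asns, whose match lies in an exon of GENCODE M21, only the site with its flanks.
Gars, chr6:55037751-55038000, plus strand: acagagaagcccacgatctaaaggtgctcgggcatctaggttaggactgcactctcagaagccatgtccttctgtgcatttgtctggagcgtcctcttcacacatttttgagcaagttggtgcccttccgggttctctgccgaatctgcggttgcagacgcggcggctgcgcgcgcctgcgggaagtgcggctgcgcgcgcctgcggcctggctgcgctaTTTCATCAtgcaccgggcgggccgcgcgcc
Tars, chr15:11399666-11399908, minus strand: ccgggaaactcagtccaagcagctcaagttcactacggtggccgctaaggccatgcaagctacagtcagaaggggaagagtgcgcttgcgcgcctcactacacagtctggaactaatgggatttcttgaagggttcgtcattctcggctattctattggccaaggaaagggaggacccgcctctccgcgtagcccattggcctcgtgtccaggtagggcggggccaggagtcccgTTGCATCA
Pycr1, chr11:120643770-120643998, minus strand: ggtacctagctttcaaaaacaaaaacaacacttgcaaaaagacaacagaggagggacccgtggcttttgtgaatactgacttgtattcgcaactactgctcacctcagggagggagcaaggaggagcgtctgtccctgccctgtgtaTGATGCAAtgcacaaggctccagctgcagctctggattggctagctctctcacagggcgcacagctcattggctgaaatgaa
Chac1, chr2:119350992-119351228, plus strand: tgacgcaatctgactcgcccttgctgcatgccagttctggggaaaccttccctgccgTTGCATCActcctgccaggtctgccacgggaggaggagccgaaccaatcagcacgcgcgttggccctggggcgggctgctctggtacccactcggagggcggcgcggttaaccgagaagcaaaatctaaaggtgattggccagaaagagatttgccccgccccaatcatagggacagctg
Asns, chr6:7693214-7693243, minus strand: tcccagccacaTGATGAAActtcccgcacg
The match began 30, 15, 103, 193 and 23 bases upstream of the RefSeq start in Gars, Tars, Pycr1, Chac1 and Asns. It read TTGCATCA, the reverse complement form, in Tars and Chac1, TTTCATCA in Gars, TGATGCAA in Pycr1 and TGATGAAA in Asns. Gars, Tars, Pycr1 and Asns rose with overload, as described below for each, and Chac1 had too few counts to test. Among members with a window but no TGATGNAA, Psat1, Shmt2, Mthfd2, Bcat1 and Slc7a1 rose as well, while Yars and Atf4 were not called. A link between the motif and the rise was not tested. The list was chosen in part for the ATF4 program, so its share of matches is no independent evidence either. A match describes the letters in this window and is not a measured binding site. No window was listed for Cars, Hars, Lars, Nars, Rars, Slc1a5, Slc7a5, Vars and Wars.

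The shallowest sham library held 500402 counts and the deepest 754456, and the overloaded ones lay between 850857 and 1124210. All 8 FAP markers looked at, among them Pdgfra, Dcn and Col1a1, had counts in every library, but their levels were not alike. For 5 of them every overloaded library lay below every sham library, and for 2 above. On average Dcn fell with overload from 20310 to 8208 CPM, while Col1a1 rose from 4538 to 12104 CPM. Of the 8, edgeR called 2 higher and 3 lower (adjusted p under 0.05). The leukocyte markers Lyz2 and Adgre1, the muscle cell marker Myod1 and the Schwann cell marker Sox10 had 0 counts in every library. Other markers of such cells were detected, with 14 to 32 counts of Tnnt3 (muscle) in a library, 0 to 6 of Pax7 (satellite cells) and 0 to 11 of Ngfr (Schwann cells). Summed pericyte and smooth muscle markers (8 genes) lay between 143 and 195 CPM in sham and between 108 and 163 CPM in overloaded libraries. For tenocyte markers (6 genes) the sums were 44.4 to 58.7 and 42.3 to 91.4 CPM. Summed leukocyte markers (10 genes) lay between 15.8 and 24.9 CPM in sham and between 1.92 and 20.1 CPM in overloaded libraries. CPM are counts per 1000000 counts in tested genes, with edgeR's TMM scaling. Summed endothelial markers (9 genes, all detected in at least 1 library, with 19 to 93 counts of Tek and 0 to 7 each of Pecam1, Vwf and Cdh5 in a library) lay between 126.5 and 233 CPM in sham and between 33.6 and 96.6 CPM in overloaded libraries. Olfactory and vomeronasal receptor genes, taken here as a gauge of background reads, held 1445, 1819 and 781 of every 1000000 counts in the sham libraries, against 308, 1092 and 232 in the overloaded ones. Depth, the endothelial sum and most of the FAP markers thus differed between the groups without overlap. The difference in that sum lay mainly in Tek, at 127, 106 and 125 CPM in sham and 31.7, 23.8 and 25.4 CPM in overloaded libraries. Each of the other endothelial markers overlapped between the groups. Background reads tended to be lower in overloaded libraries, but overloaded library 2 lay above sham library 3. The part of these differences in the results was not tested beyond the thinned counts and the background covariate given below. In sorted bulk samples, less RNA per cell and fewer cells of a type cannot be told apart.

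Most of the tested genes of this set were higher in overloaded FAPs, and the largest differences were in Bcat1, Mthfd2, Psat1 and Asns. Enough counts for a test were present for 34 of the 41 members, and 23 of them were higher, 0 lower and 11 not called (edgeR quasi-likelihood F test, adjusted over all 7207 tested genes, threshold 0.05). Of all tested genes, 15% were called higher and 14.3% lower, together 29.3%. The share of tested members called higher was 67.6%. The median log2 fold change (overloaded minus sham) was 1.12 over the tested members and -0.02 over all tested genes, with median standard errors (SE) of 0.35 and 0.33. Single log2 fold changes are given below as the value ± its SE. The libraries of the 2 groups did not overlap, with overloaded higher, for 23 tested members, and 21 of these were called, where 21.2% of all tested genes showed that pattern. The opposite pattern was seen for 0 tested members and 20.3% of all tested genes. No tested member had an unadjusted p under 0.05 on the lower side by edgeR, DESeq2 or limma-voom, and each of these tools called 0 lower after adjustment. With thinned counts, with or without the replicate block, and without overloaded replicate 3, 1 member (Slc1a5) was lower at an unadjusted edgeR p under 0.05. The filter on low counts keeps a gene that is abundant in only the overloaded libraries, which can fix the direction. This applies to 3 of the 4 genes with the largest differences. Bcat1 and Asns reached the filter level in 0 sham libraries and Mthfd2 in 1, each beside 3 overloaded libraries. Of the other called members, Slc7a5 reached it in 1 sham library and Pycr1 in 2. Restricted to the 27 members whose 3 sham libraries all passed the filter level, 18 were called higher, where 13.6% of the 5902 such genes were.

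**Figure D1:**
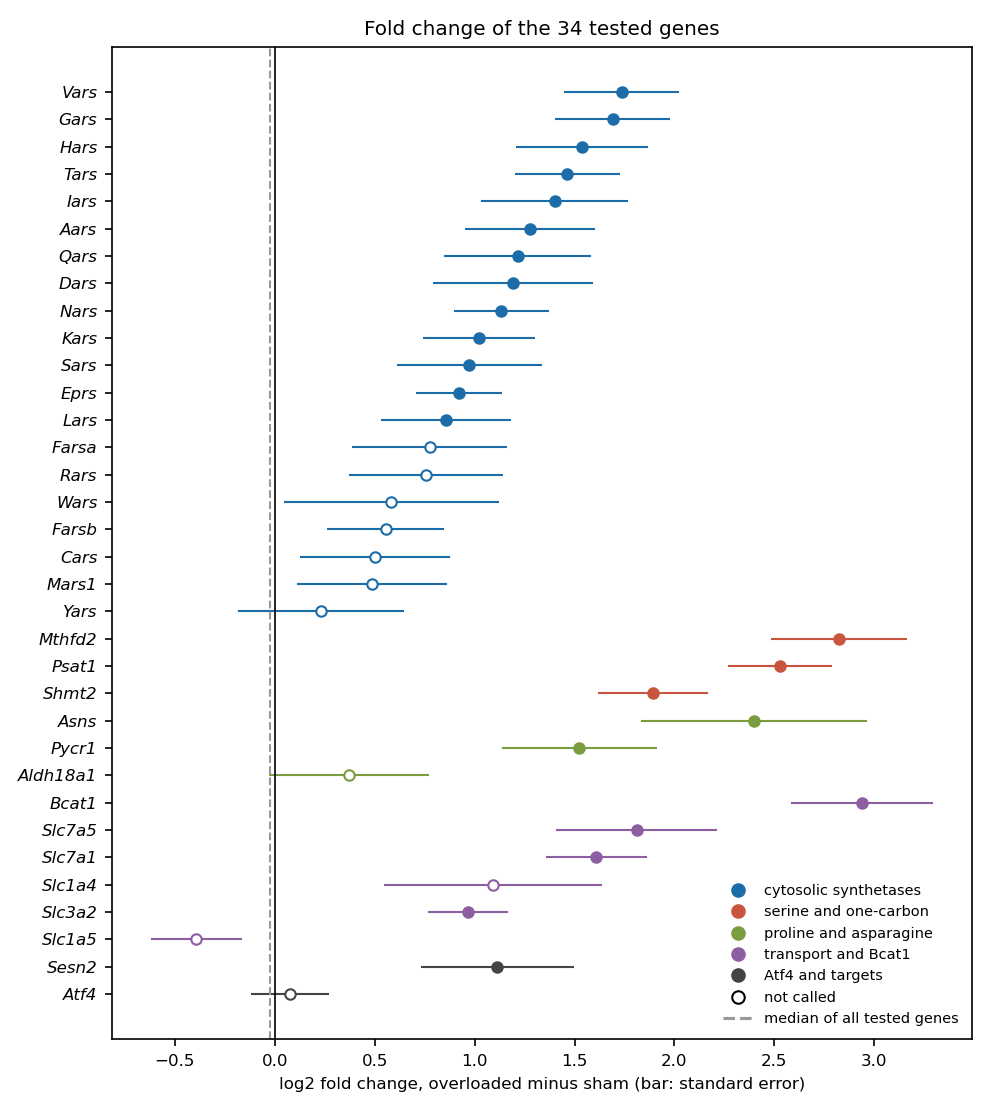
Log2 fold change of the 34 tested genes, overloaded minus sham, on the x axis with its standard error as the bar, with genes on the y axis coloured by role. Filled points are called at an adjusted p under 0.05 and open ones are not. The dashed line is the median of all tested genes at -0.02. All points but Slc1a5 lie to the right of 0, from Atf4 at 0.08 to Bcat1 at 2.94.

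**Figure D2:**
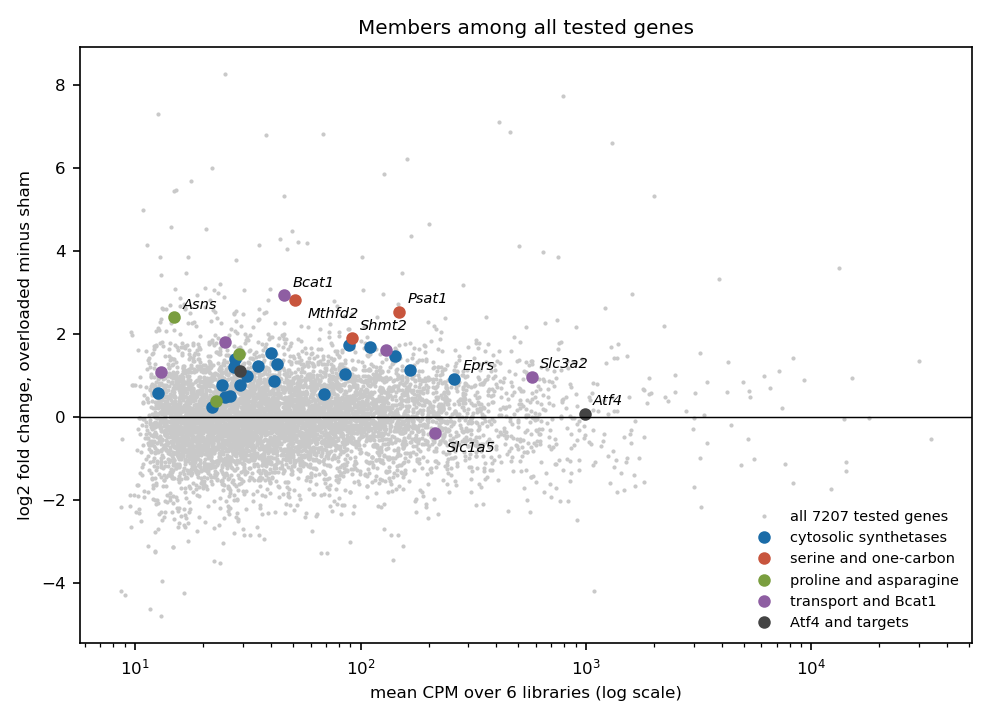
Log2 fold change on the y axis against mean CPM over the 6 libraries on the x axis (log scale) for all 7207 tested genes in grey, with the members coloured by role. The members spread over much of the x axis, and genes outside the list reach larger fold changes than Bcat1 at 2.94.

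All 20 cytosolic synthetase genes, which cover every amino acid used in translation, had enough counts to test, and all 20 log2 fold changes were positive, from 0.23 (Yars) to 1.74 (Vars) with a median of 1.0. Of these, 13 were called higher and 7 were not called. Their summed level was 856, 939.5 and 690.3 CPM in sham and 1738, 1710.5 and 1901 CPM in overloaded libraries, or 829 ± 127 to 1783 ± 103 CPM (mean ± SD over 3 libraries each). Every overloaded library stood above every sham library in this sum. After thinning each library to the smallest total, 18 of 19 tested synthetases had positive fold changes, and with the background covariate or without overloaded replicate 3, 19 of 20 had. The exception was Yars each time.

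The largest synthetase difference was that of Vars, the valyl-tRNA synthetase gene (chromosome 17, 35000987 to 35016322), at 21.5, 51.8 and 51.1 CPM in sham and 114, 133 and 164 CPM in overloaded libraries. Its log2 fold change was 1.74 ± 0.29 (edgeR adjusted p = 2.97e-05), and sham library 1 lay well under the other sham libraries. Gars, for glycine (chromosome 6, 55038007 to 55079500), was measured at 78.8, 51.8 and 25.6 CPM in sham and 184, 155 and 163 CPM in overloaded libraries. Its sham libraries were spread widely, with library 1 about 3 times library 3, while the overloaded ones lay close together, and the log2 fold change was 1.69 ± 0.29 (edgeR adjusted p = 5.03e-05). Tars, for threonine (chromosome 15, 11382301 to 11399665), stood at 74.5, 112 and 44.4 CPM in sham and 203, 209 and 211 CPM in overloaded libraries, so that the overloaded libraries were almost equal. The rise of Tars was 1.46 on the log2 scale ± 0.26 (edgeR adjusted p = 7.57e-05). Hars, for histidine (chromosome 18, 36766528 to 36783205), was at 20.0, 22.8 and 18.8 CPM in sham and 58.7, 52.7 and 67.1 CPM in overloaded libraries, with tight groups far apart. Its difference was 1.54 ± 0.33 (edgeR adjusted p = 0.000616), but exons of Hars2, the mitochondrial histidyl-tRNA synthetase gene, overlap those of Hars on the opposite strand, and the counts are uncertain to that extent.

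Further members of this class rose by log2 fold changes of 0.92 to 1.40. Nars, for asparagine (chromosome 18, 64499647 to 64516652), was at 87.3, 143 and 84.8 CPM in sham and 226, 247 and 209 CPM in overloaded libraries, a difference of 1.13 ± 0.24 (edgeR adjusted p = 0.000447). Sham library 2 was the highest sham library and still below every overloaded one. Eprs encodes the bifunctional enzyme for glutamate and proline (chromosome 1, 185363044 to 185428360) and stood at 206, 185 and 149 CPM in sham and 359.7, 282 and 379 CPM in overloaded libraries. Its rise was 0.92 ± 0.22 (edgeR adjusted p = 0.00151), without overlap between the groups. Iars, for isoleucine (chromosome 13, 49682100 to 49734267), was at 12.9, 16.6 and 16.1 CPM in sham and 43.3, 38.9 and 38.2 CPM in overloaded libraries, a change of 1.40 ± 0.37 (edgeR adjusted p = 0.00427) with little spread in either group. Aars, for alanine (chromosome 8, 111033144 to 111057664), was at 28.6, 29.0 and 17.5 CPM in sham and 56.8, 56.4 and 67.1 CPM in overloaded libraries, or 1.28 ± 0.33 (edgeR adjusted p = 0.0033). Exons of Exosc6 on the same strand overlap those of Aars. Kars, for lysine (chromosome 8, 111993443 to 112011323), was at 60.1, 78.8 and 32.3 CPM in sham and 98.1, 130.4 and 112 CPM in overloaded libraries, with sham library 3 lowest. The log2 fold change of Kars was 1.02 ± 0.28 (edgeR adjusted p = 0.00568), and it was not called without sham replicate 3 (adjusted p = 0.0682). With the background covariate Aars, Eprs and Iars were not called (edgeR adjusted p = 0.0638, 0.119 and 0.0749).

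The remaining 4 called synthetases stood near the threshold or rested on single libraries. Qars, for glutamine (chromosome 9, 108507706 to 108515941), was at 25.8, 14.5 and 21.5 CPM in sham and 33.7, 40.1 and 74.0 CPM in overloaded libraries, with overloaded library 3 far above the other 2. Its log2 fold change of 1.21 ± 0.37 (edgeR adjusted p = 0.0122) was not called without overloaded replicate 3 (adjusted p = 0.145) or without sham replicate 2 (0.0603). Dars, for aspartate (chromosome 1, 128363707 to 128417368), was at 12.9, 24.9 and 13.5 CPM in sham and 47.1, 21.3 and 44.0 CPM in overloaded libraries. Here the groups overlapped, since sham library 2 was above overloaded library 2, and the call (1.19 ± 0.40, edgeR adjusted p = 0.0243) held in 7 of 15 alternatives. Without sham replicate 1 or 3 or overloaded replicate 1 or 3 the adjusted p of Dars was 0.0852, 0.0994, 0.112 and 0.0775. Sars, for serine (chromosome 3, 108424865 to 108445209), was at 21.5, 18.7 and 22.9 CPM in sham and 53.9, 25.1 and 45.1 CPM in overloaded libraries, and overloaded library 2 was only just above the sham libraries. Its difference of 0.97 ± 0.36 (edgeR adjusted p = 0.0416) was called in 3 of 15 alternatives, and leaving out any library but overloaded 2 gave adjusted p-values of 0.0749, 0.108, 0.0781, 0.186 and 0.0969. Lars, for leucine (chromosome 18, 42202298 to 42262194), was at 22.9, 27.0 and 37.7 CPM in sham and 65.4, 51.4 and 42.8 CPM in overloaded libraries, or 0.86 ± 0.33 (edgeR adjusted p = 0.0458). It was called in 4 of 16 alternatives and not without sham replicate 1 or 2 or overloaded replicate 1 or 2 (adjusted p = 0.136, 0.111, 0.167 and 0.0625). With the background covariate Qars, Dars, Sars and Lars were not called either (edgeR adjusted p = 0.346, 0.557, 0.757 and 0.316).

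The 7 synthetases that were not called had log2 fold changes from 0.23 to 0.78. Farsa and Farsb encode the alpha and beta subunits of the phenylalanine enzyme. Farsa was at 27.2, 18.7 and 17.5 CPM in sham and 22.1, 55.2 and 33.5 CPM in overloaded libraries (0.78 ± 0.39, edgeR adjusted p = 0.133). Farsb was at 63.0, 60.1 and 44.4 CPM in sham and 48.1, 103 and 96.0 CPM in overloaded libraries (0.55 ± 0.29, edgeR adjusted p = 0.16). In both subunits overloaded library 1 fell among the sham libraries, and without overloaded replicate 1 both were called (adjusted p = 0.0492 and 0.0274). Rars, for arginine, had a log2 difference of 0.76 ± 0.38 and Wars, for tryptophan, one of 0.58 ± 0.54, the latter on 19 sham counts. Cars, for cysteine, was at 0.50 ± 0.38 and Mars1, for methionine, at 0.49 ± 0.37, and exons of Ddit3 overlap those of Mars1 on the opposite strand. Rars and Mars1 were higher in every overloaded library than in any sham library, without passing the test (edgeR adjusted p = 0.141 and 0.356). Yars, for tyrosine, had the smallest difference, 0.23 ± 0.42 (edgeR adjusted p = 0.729), with 22.9, 22.8 and 14.8 CPM in sham and 18.3, 16.3 and 35.9 CPM in overloaded libraries. The sizes of these errors leave room for differences as large as those of several called genes.

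**Figure D3:**
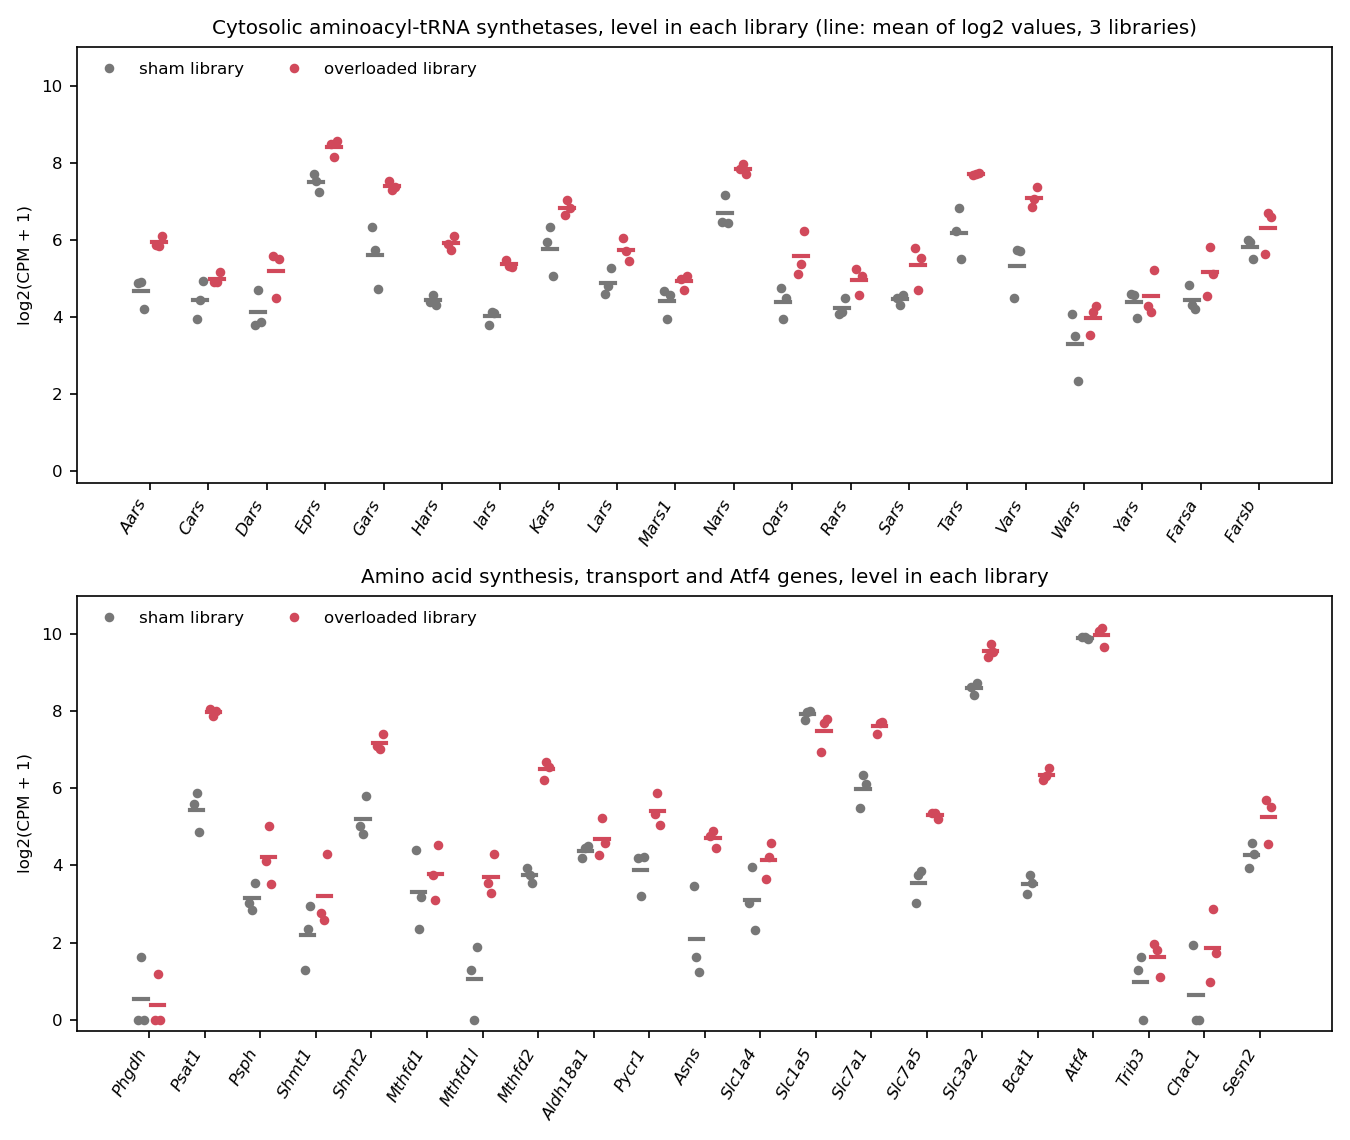
Level of each of the 41 genes in each library as log2(CPM + 1) on the y axis, with grey points for the 3 sham and red points for the 3 overloaded libraries and a line at the mean of the log2 values. The upper panel holds the cytosolic synthetases and the lower panel the other members. Bcat1 and Mthfd2 show the widest gaps between the group means, the points of Atf4 nearly coincide, and Phgdh, Trib3 and Chac1 rest on 1 to 8 counts in each group.

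In the serine and one-carbon group the 3 testable genes rose strongly. Psat1, the phosphoserine aminotransferase of serine synthesis (chromosome 19, 15904678 to 15947337), was at 47.3, 58.1 and 28.3 CPM in sham and 264, 235 and 258 CPM in overloaded libraries. It went from 44.5 ± 15.1 to 252 ± 15.4 CPM (mean ± SD, 3 libraries in each group), a log2 difference of 2.53 ± 0.26 (edgeR adjusted p = 8.95e-09). Shmt2, the mitochondrial hydroxymethyltransferase that splits serine into glycine and a one-carbon unit (chromosome 10, 127517123 to 127522444), was at 31.5, 27.0 and 55.2 CPM in sham and 136, 129 and 169 CPM in overloaded libraries. Its rise of 1.89 ± 0.28 (edgeR adjusted p = 3.95e-06) left the groups far apart, and exons of Ndufa4l2 on the opposite strand overlap those of Shmt2. Mthfd2, the mitochondrial enzyme that oxidises that one-carbon unit (chromosome 6, 83305691 to 83325908), was at 14.3, 12.4 and 10.8 CPM in sham and 74.1, 102 and 93.7 CPM in overloaded libraries. With 12.5 ± 1.78 to 89.8 ± 14.2 CPM its log2 fold change was 2.83 ± 0.34 (edgeR adjusted p = 1.89e-07). Psat1, Shmt2 and Mthfd2 were called in all 16 alternatives run.

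The other 5 genes of this group had too few counts for the filter. Mthfd1l, which completes the mitochondrial one-carbon path as formyltetrahydrofolate synthetase, lies on chromosome 10, 3973118 to 4167081. It had 3 counts over the sham and 34 over the overloaded libraries. The ratio of summed counts, scaled for library size, was 8.07 with a 95% counting interval of 2.54 to 41.1. Its libraries were at 1.43, 0 and 2.69 CPM in sham and 10.6, 8.78 and 18.5 CPM in overloaded libraries, so the groups did not overlap. Shmt1 and Mthfd1 belong to the cytosolic path. Shmt1 had 8 counts over the sham and 26 over the overloaded libraries (ratio 2.31 with a 95% counting interval of 1.02 to 5.91), and most of the overloaded counts were in library 3. Mthfd1 had 22 counts over the sham and 38 over the overloaded libraries (ratio 1.23 with a 95% counting interval of 0.709 to 2.18), and its groups overlapped. Psph, the last step of serine synthesis, had 16 counts over the sham and 51 over the overloaded libraries (ratio 2.27 with a 95% counting interval of 1.27 to 4.26), again with overlap, and exons of Cct6a overlap it on the opposite strand. Phgdh, the first and committing enzyme of serine synthesis, had 1 count in each group, too few to say anything of a difference. These intervals cover counting error only.

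Proline and asparagine synthesis gave 2 called genes of 3. Asns, asparagine synthetase (chromosome 6, 7675169 to 7693254), was at 10.02, 2.07 and 1.35 CPM in sham and 26.0, 28.8 and 20.8 CPM in overloaded libraries, from 9 sham counts in all. Sham library 1 held 7 of those counts, and the log2 fold change of 2.40 ± 0.57 (edgeR adjusted p = 0.00165) became 3.85 without that library. Pycr1, the mitochondrial reductase that finishes proline (chromosome 11, 120635712 to 120643769), was at 17.2, 8.30 and 17.5 CPM in sham and 39.4, 57.7 and 32.4 CPM in overloaded libraries, a rise of 1.52 ± 0.39 (edgeR adjusted p = 0.00312). Aldh18a1, which makes the proline precursor from glutamate, was at 17.2, 20.7 and 21.5 CPM in sham and 18.3, 36.4 and 23.1 CPM in overloaded libraries and was not called (0.37 ± 0.40, edgeR adjusted p = 0.527). The difference between Pycr1 and Aldh18a1 was not tested.

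Among transport genes, both chains of the large neutral amino acid transporter rose. Slc7a5, its light chain LAT1, which carries leucine and other large neutral amino acids (chromosome 8, 121881150 to 121907694), was at 7.16, 12.4 and 13.5 CPM in sham and 40.4, 40.1 and 35.9 CPM in overloaded libraries. The log2 fold change of Slc7a5 was 1.81 ± 0.40 (edgeR adjusted p = 0.00089). Slc3a2, the heavy chain that brings Slc7a5 and related carriers to the surface (chromosome 19, 8706882 to 8723369), was at 397, 342 and 422 CPM in sham and 675, 863 and 738 CPM in overloaded libraries, a difference of 0.97 ± 0.20 (edgeR adjusted p = 0.000391). Slc7a1, the carrier of arginine and lysine (chromosome 5, 148327410 to 148399904), was at 44.4, 80.9 and 68.6 CPM in sham and 168, 208 and 209 CPM in overloaded libraries, or 1.61 ± 0.25 (edgeR adjusted p = 1.21e-05). For these 3 genes no overloaded library reached down to a sham library. Slc1a5, the glutamine carrier ASCT2 (chromosome 7, 16781340 to 16798274), was the only tested member with a negative log2 fold change, -0.39 ± 0.23 (edgeR adjusted p = 0.205), and was not called. Its libraries were at 218, 251 and 256 CPM in sham and 123, 208 and 222 CPM in overloaded libraries, with overloaded library 1 low and the groups overlapping. Its relative Slc1a4, a carrier of alanine, serine and cysteine, was at 7.16, 14.5 and 4.04 CPM in sham and 11.5, 17.6 and 23.1 CPM in overloaded libraries and was not called either (1.09 ± 0.55, edgeR adjusted p = 0.135).

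Bcat1, the cytosolic aminotransferase of leucine, isoleucine and valine (chromosome 6, 144993835 to 145076184), showed the largest difference of all tested members. It was at 8.59, 12.4 and 10.8 CPM in sham and 73.1, 79.0 and 91.4 CPM in overloaded libraries, from 10.6 ± 1.93 to 81.2 ± 9.33 CPM, a log2 difference of 2.94 ± 0.36 (edgeR adjusted p = 2.04e-07). The overloaded libraries held 218 counts in all and the sham libraries 20, and Bcat1 passed the filter on low counts through its overloaded libraries only. An annotated gene on the opposite strand, Gm26666, overlaps exons of Bcat1.

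The mRNA of Atf4 itself (chromosome 15, 80255184 to 80257541) was nearly the same in both groups, at 972, 979 and 932 CPM in sham and 1093, 1134 and 812 CPM in overloaded libraries. Its log2 fold change was 0.08 ± 0.20 (edgeR adjusted p = 0.818), and over the alternatives it was called in 0 of 16, with fold changes from 0.01 to 0.28. Overloaded library 3 was the lowest of all 6 for Atf4. Sesn2, a leucine-binding inhibitor of mTORC1 and a target of ATF4 (chromosome 4, 132492032 to 132510501), was at 14.3, 22.8 and 18.8 CPM in sham and 51.0, 22.6 and 45.1 CPM in overloaded libraries, and sham library 2 lay just above overloaded library 2. Its call (1.11 ± 0.38, edgeR adjusted p = 0.0271) held in 6 of 15 alternatives and was lost without sham replicate 1 or 3 or overloaded replicate 1 or 3 (adjusted p = 0.0917, 0.0666, 0.133 and 0.0781) and with the background covariate (0.669). Trib3, a pseudokinase that feeds back on ATF4, had 2 counts over the sham and 6 over the overloaded libraries, at 1.43, 2.07 and 0 CPM in sham and 2.89, 2.51 and 1.16 CPM in overloaded libraries. Chac1, which degrades glutathione, had 2 counts over the sham and 8 over the overloaded libraries, at 2.86, 0 and 0 CPM in sham and 0.962, 6.27 and 2.31 CPM in overloaded libraries. The ratios were 2.14 with a 95% counting interval of 0.382 to 21.6 for Trib3 and 2.85 with a 95% counting interval of 0.568 to 27.5 for Chac1, so neither direction nor its absence was detectable at this depth.

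The overloaded libraries did not share 1 order over the members. Among the 23 called members the highest overloaded library was library 1 for 8 genes, library 2 for 6 and library 3 for 9. The lowest was library 1 for 8, library 2 for 9 and library 3 for 6. Among the 13 called synthetases library 2 was the lowest for 6 and the highest for 2. In the group of transporters and Bcat1 library 1 was the lowest for 3 of the 4 called genes, and for Pycr1 and Asns library 3 was.

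Genes of the same pathways outside the list, in 9 groups of together 161 measured genes, were called in both directions. Of the 85 tested, 18 were higher and 14 lower, or 21.2% and 16.5%, beside 15% and 14.3% of all tested genes, with a median log2 fold change of 0.12 beside -0.02. The groups are small, and their counts below are descriptions to be read beside these shares. The limit set by the filter on low counts holds here too, since 18 of the tested genes had under 3 sham libraries at the filter level. Eef1e1, Ass1 and Slc7a2 reached it in 0 sham libraries and Yars2 in 1, each beside 3 overloaded libraries, which can fix the direction. Slc38a6 reached it in 3 sham and 0 overloaded libraries. Among mitochondrial aminoacyl-tRNA synthetases and the subunits that amidate their tRNAs only 5 of 20 could be tested, 1 was called and the median was -0.07. The called gene was Yars2, for tyrosine, at 12.9, 2.07 and 8.07 CPM in sham and 23.1, 25.1 and 37.0 CPM in overloaded libraries, or 1.77 ± 0.48 (edgeR adjusted p = 0.00568). Of 4 tested genes of the synthetase complex and tRNA modification, 2 rose. Eef1e1, a scaffold protein of the multi-synthetase complex, was at 7.16, 12.4 and 12.1 CPM in sham and 38.5, 43.9 and 62.5 CPM in overloaded libraries, or 2.19 ± 0.40 (edgeR adjusted p = 9.28e-05). Yrdc, which helps to make a modified base of tRNA, rose by 1.28 (edgeR adjusted p = 0.0129). The call of Yrdc was lost without sham replicate 1 or 3 or overloaded replicate 1 (adjusted p = 0.0556, 0.11 and 0.0611), and its log2 fold change was 1.92 without sham replicate 2.

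Of 12 tested genes in the wider one-carbon and methionine group 2 fell and 10 were not called. Both that fell are from the enzyme that makes the methyl donor S-adenosylmethionine. Its catalytic subunit gene Mat2a went to 350.1, 395 and 322 CPM in overloaded libraries from 663, 587 and 797 CPM in sham (log2 fold change -0.94 ± 0.20, edgeR adjusted p = 0.000592). Its regulatory subunit gene Mat2b fell by 1.20 on the log2 scale (edgeR adjusted p = 0.00307). In the group of other proline, glutamine and aspartate enzymes 4 of 11 rose and 2 fell. Glul, glutamine synthetase, fell from 783, 695 and 713 CPM to 312, 325 and 251 CPM (log2 fold change -1.30 ± 0.20, edgeR adjusted p = 9.28e-06). Got1, the cytosolic aspartate aminotransferase, rose by 1.13 (edgeR adjusted p = 0.00181) and Ass1, argininosuccinate synthase, by 2.06 (edgeR adjusted p = 0.00375). Of 9 tested genes for the breakdown of branched-chain amino acids 8 were not called and 1 fell, Ivd, which acts on the leucine product (log2 fold change -1.47, edgeR adjusted p = 0.0031).

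**Figure D4:**
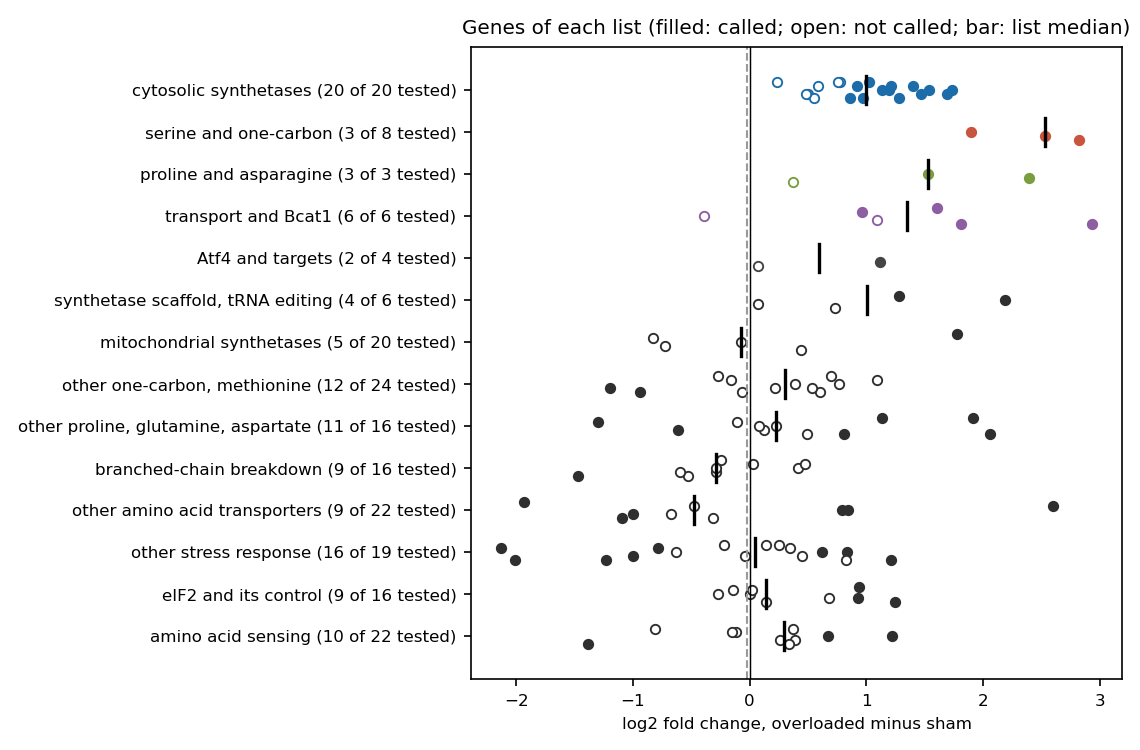
Log2 fold change, overloaded minus sham, on the x axis for every tested gene of the 5 member groups (coloured) and the 9 groups of other pathway genes (dark), with filled points for called and open points for genes that were not called, a bar at the group median and a dashed line at the median of all tested genes. The cytosolic synthetases lie between 0.23 and 1.74, while 4 of the 9 groups of other pathway genes hold called genes on both sides of 0.

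The 9 tested carriers outside the list split into 3 higher, 3 lower and 3 not called. Slc7a2, another carrier of cationic amino acids, was at 5.73, 4.15 and 1.35 CPM in sham and 26.9, 16.3 and 25.4 CPM in overloaded libraries, or 2.60 ± 0.58 (edgeR adjusted p = 0.000982). It passed the filter on low counts through its overloaded libraries only. Slc38a10 rose by 0.84 (edgeR adjusted p = 0.00768). Slc6a6, the taurine carrier, rose by 0.79 (edgeR adjusted p = 0.0115, and 0.0644 without sham replicate 2). Slc38a6 fell by 1.93 (edgeR adjusted p = 0.0095, and 0.111 or 0.078 without sham replicate 2 or overloaded replicate 1).

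Of 16 tested stress-response genes outside the list 3 rose and 5 fell. Atf3, a stress-induced transcription factor that ATF4 can activate, was at 859, 933 and 848 CPM in sham and 247, 252 and 156 CPM in overloaded libraries, or -2.01 ± 0.21 (edgeR adjusted p = 1.81e-08). Vldlr, a lipoprotein receptor and reported ATF4 target, fell by 2.13 (edgeR adjusted p = 3.23e-07), and Ppp1r15a, the phosphatase subunit that reverses eIF2 phosphorylation, by 1.0 (edgeR adjusted p = 0.00062). Hspa5, the main chaperone of the endoplasmic reticulum, rose by 0.83 (edgeR adjusted p = 0.00181). Among 9 tested genes of eIF2 and its control 6 were not called and 3 rose: Eif2s1 and Eif2s2, which encode the alpha and beta subunits of eIF2, by 1.24 and 0.93 (edgeR adjusted p = 0.000895 and 0.00338), and Eif2b1, a subunit of its exchange factor, by 0.93 (edgeR adjusted p = 0.0415). Eif2b1 was called in 3 of 15 alternatives and not without sham replicate 1, 2 or 3 or overloaded replicate 3 (adjusted p = 0.0688, 0.0809, 0.107 and 0.205). Of 10 tested genes for amino acid sensing by mTORC1 2 rose and 1 fell. Lamtor1, a lysosomal anchor of the Rag GTPases, rose by 1.22 (edgeR adjusted p = 0.00248). Rraga, one of those GTPases, rose by 0.67 (edgeR adjusted p = 0.029), but not without sham replicate 2 or 3 or overloaded replicate 2 (adjusted p = 0.0878, 0.179 and 0.0558). Castor2, related to the arginine sensor, fell by 1.38 (edgeR adjusted p = 0.0401), a call lost on leaving out any 1 library, with adjusted p-values from 0.0765 to 0.156.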

How the data were processed

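The values are whole-number read counts for 54100 Ensembl identifiers in 6 libraries, as the authors deposited them. Per the labels' protocols, libraries followed a published CEL-Seq2 type of method, which tags transcripts near their 3′ end, so levels are not compared between genes. The build GRCm38 and featureCounts 2.0.1, DESeq2 1.28.1, HISAT2 2.2.1 and Trim Galore 0.6.6 are named in the submitters' processing notes. The strand setting, the annotation and the use of molecular identifiers were not given in those sources, so overlapping genes on either strand cannot be told apart, and intervals cover counting error only. Exons of 11 of the 41 members overlap those of another gene in GENCODE M21 (GRCm38), which also gave gene positions.

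Counts were tested with edgeR 4.0.16 in R 4.3.3 (quasi-likelihood F test, robust dispersions, TMM), on the 7207 genes kept by filterByExpr (minimum count 10, minimum total 15), with Benjamini-Hochberg adjustment over all of them and a threshold of 0.05. The SE is the log2 fold change divided by the square root of F. For genes with too few counts the ratio of summed counts is given with an exact 95% interval. Replicates of a group differed by more than sampling noise (chi-square per degree of freedom 3.75 to 6.61). Members and pathway lists were chosen with earlier results of these data known. Every member is accounted for, with values in each library for called members and the ATF4 group, and up to 4 called genes of each other list are named in order of adjusted p, except for items not reported here. Alternatives were DESeq2 1.42.0, limma-voom (limma 3.58.1), other scalings and count filters, thinned counts, the replicate number as a block, background reads as a covariate, and leaving out each library.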

Additional observations from a re-analysis of the deposited data

How the results depend on the processing

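The count of 23 members called higher was 15 with a minimum count of 30, where 18 members were tested, and 15 with background reads as a covariate. Of all genes tested, 21.4% and 6.77% were called higher under these settings, in that order, against 15% in the main test. That covariate left 488 higher and 381 lower genes of all tested, against 1084 and 1027, and the DESeq2 Wald test called 572 lower. Under the other settings the members called higher numbered 18 (DESeq2, thinned counts) to 23, and 19 to 22 without 1 library each, with 0 lower in all 16 alternatives. The share of all genes with an adjusted p that were called higher was 9.41% for DESeq2 and 15.3% with thinned counts. It was 3.8% without the filter on low counts, and 11.2% to 14.0% without 1 library each. Of 522 fold changes of members under alternatives, 467 kept their direction and side of the threshold, 49 were no longer called and 2 were newly called. The other 4 changed sign, all of Yars, which was not called in any of them: its log2 fold change was -0.15 with thinned counts, -0.19 with the block as well, -0.17 with the covariate and -0.18 without overloaded replicate 3 (up to 0.44 without 1 other library). 14 of the 23 called members were called in every alternative that gave an adjusted p. Scaling by library size only shifted the median log2 fold change of all genes by -0.07, the other scalings by less. Replicate numbers did not pair the libraries (correlation of deviations 0.008, 0.014 and 0.015), and with the replicate block 22 members were higher, or 18 with thinned counts as well. At this depth, 7 members had too few counts to test.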
